A study of Mus musculus with 12 samples.

Results

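Sult1e1, Ptgis, Inmt, Olah and Rgn encode enzymes that act on small molecules, and their signals in plucked mouse skin differed between the study's experiments, in a direction shared by both genotypes. They are 5 of the 20887 named genes of the array. The genes were chosen by their signal differences between Exp 1 and Exp 2, and measured as every probe whose transcript accession belongs to one of the 5 genes, which gave 1 probe per gene. All 5 passed the filter on dim probes, under which a probe had to be well above background in 3 mice or more. Since Sult1e1 and Ptgis passed it through Exp 2, their passing is no evidence of a difference.

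The study set skin lacking Sox4 beside wild-type skin during the regrowth of hair. All 12 animals were males of mixed C57Bl6/129Sv stock (75:25), with skin taken 12 days after plucking and 1 array per mouse. The groups were cKO mice of Exp 1 (mice 2, 5 and 6, aged 68 to 72 weeks), cKO mice of Exp 2 (mice 1, 3 and 4, aged 16 to 18 weeks), WT mice of Exp 1 (mice 1, 2 and 3, aged 69 to 72 weeks) and WT mice of Exp 2 (mice 4, 5 and 6, aged 18 to 20 weeks). The cKO label stands for a conditional Sox4 knockout in skin, and the labels do not name the driver of the deletion. Age and experiment cannot be told apart, so the comparison is written below as Exp 1 against Exp 2.

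Sult1e1 encodes estrogen sulfotransferase, which inactivates estrogens by adding a sulfate group. Ptgis encodes prostacyclin synthase, a cytochrome P450 that turns prostaglandin H into prostacyclin, a vessel-relaxing prostanoid. Inmt encodes indolethylamine N-methyltransferase, which moves a methyl group from S-adenosylmethionine to tryptamine and related amines. Olah encodes a thioesterase that releases medium-chain fatty acids from fatty acid synthase, known best from the rodent mammary gland. Rgn encodes regucalcin, a calcium-binding protein abundant in liver that also works as a gluconolactonase in the ascorbate synthesis of rodents.

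The promoter windows of Sult1e1, Inmt and Olah are shown because these genes moved in both directions between the experiments, and the RefSeq table (GRCm38.p6) held 3 of the 5 genes. Each window is the 250 bases before the start, read 5′ to 3′ on the minus strand. Capitals mark a match, on either strand, to 1 of 4 searched motifs, which were the TATA box TATAAA, the CCAAT box CCAAT, the nuclear receptor half-site AGGTCA and the Sox core ACAAAG.
Sult1e1 promoter, chr5:87591612-87591861: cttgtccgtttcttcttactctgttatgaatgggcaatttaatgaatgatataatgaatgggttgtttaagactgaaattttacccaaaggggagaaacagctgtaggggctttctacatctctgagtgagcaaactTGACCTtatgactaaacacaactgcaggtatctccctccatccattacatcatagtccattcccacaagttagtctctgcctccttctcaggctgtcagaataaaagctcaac
Inmt promoter, chr6:55174991-55175240: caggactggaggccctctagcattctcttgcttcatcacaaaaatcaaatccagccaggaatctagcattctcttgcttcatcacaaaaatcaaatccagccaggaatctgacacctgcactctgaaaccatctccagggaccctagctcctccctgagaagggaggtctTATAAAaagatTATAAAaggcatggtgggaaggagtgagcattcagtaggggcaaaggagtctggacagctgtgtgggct
Olah promoter, chr2:3366570-3366819: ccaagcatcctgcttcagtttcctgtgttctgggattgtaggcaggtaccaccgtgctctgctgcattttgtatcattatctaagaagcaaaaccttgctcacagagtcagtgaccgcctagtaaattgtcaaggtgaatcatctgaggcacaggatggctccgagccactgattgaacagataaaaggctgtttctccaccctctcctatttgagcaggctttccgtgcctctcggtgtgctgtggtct

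The Sult1e1 window held 1 half-site, on the other strand at 113 to 108 bases before the start, a match found in 14.0% of 32851 windows of the same length. The Inmt window held TATAAA at 80 to 75 and at 69 to 64 bases before the start, a motif found in 12.4% of windows. The Olah window held none of the 4 motifs. CCAAT, found in 33.8% of windows, and ACAAAG, found in 16.5%, were in none of the 3. No matches overlapped.

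The arrays were of similar brightness, with 75th percentiles of the processed signal between 364 and 554 units and between 53.9% and 62.6% of probes well above background. Sox4 checked the labels, with log2 levels of -4.26 to -2.55 in the 6 cKO mice, against 1.90 to 2.43 in the 6 WT mice (limma, log2 difference -5.54, SE 0.12, adjusted p = 3.75e-09). The epidermal keratins Krt5, Krt14 and Krt10 were well above background on all 12 arrays, as the skin label requires. Of the 9 marker lists, skeletal muscle genes had the widest range within one group. A log2 level below is the log2 signal minus the array's own 75th percentile, and intensities are in scanner units.

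Sult1e1 (gene ID 20860) was not measurable in Exp 1 skin and was clearly measured in Exp 2. Its processed signal was 7.70, 5.89 and 4.225 units in cKO mice 2, 5 and 6 of Exp 1, against 84.9, 253 and 151 units in cKO mice 1, 3 and 4 of Exp 2. In WT mice it was 4.91, 3.905 and 4.61 units in mice 1, 2 and 3 of Exp 1, against 199.6, 117 and 374 units in mice 4, 5 and 6 of Exp 2. Every Exp 1 mouse lay below every Exp 2 mouse, and the probe was well above background on 0 of the 6 Exp 1 arrays and on all 6 of Exp 2.

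Only a rough figure can therefore be given for the size of the Sult1e1 difference, and it holds for the scanner's own background subtraction. In cKO mice the Exp 2 level was 7.87-fold above the lowest signals of any probe that passed as above background in Exp 1. The same figure was 11.9-fold in WT mice. Neither is a strict bound, since a probe can fail at a higher signal than the lowest that passed. Ptgis in cKO mouse 6 failed at a log2 level of -4.28, where the lowest passing level of that array was -5.07. Other background handling gave smaller differences, with log2 values of -1.66 in cKO and -2.18 in WT mice after normexp correction and of -1.57 and -2.20 in the authors' deposited table. The measured log2 levels averaged -6.17 ± 0.33 in cKO Exp 1, -1.79 ± 0.83 in cKO Exp 2, -6.75 ± 0.11 in WT Exp 1 and -1.29 ± 0.73 in WT Exp 2 (SD, n = 3 each). The Exp 2 genotypes overlapped, and no order can be given to the Exp 1 values.

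Ptgis (gene ID 19223) followed the same direction with more of its Exp 1 signal near the detection limit than above it. The signal was 25.9, 12.2 and 20.3 units in cKO mice 2, 5 and 6 of Exp 1, against 283, 158 and 192 units in cKO mice 1, 3 and 4 of Exp 2. It was 11.1, 24.0 and 13.2 units in WT mice 1, 2 and 3 of Exp 1, against 223, 167 and 297 units in WT mice 4, 5 and 6 of Exp 2. The lowest Exp 2 value lay far above the highest Exp 1 value in both genotypes. In Exp 1 the probe was well above background in 1 of 3 cKO mice and in 1 of 3 WT mice, mouse 2 in each case.

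Log2 levels of Ptgis averaged -4.48 ± 0.36 in cKO Exp 1, -1.33 ± 0.41 in cKO Exp 2, -4.98 ± 0.81 in WT Exp 1 and -1.18 ± 0.30 in WT Exp 2 (SD, n = 3 each). The Exp 1 minus Exp 2 log2 difference of these means was -3.16 (SE 0.38) in cKO mice and -3.81 (SE 0.38) in WT mice. Since 2 of the 3 Exp 1 values of each genotype were not well above background, neither is a reliable size. Normexp background correction gave -1.48 in cKO and -1.71 in WT mice.

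Inmt (gene ID 21743) was bright in Exp 2 and varied more among WT mice of that experiment than any other of these genes. Its signal was 90.5, 22.7 and 48.5 units in cKO mice 2, 5 and 6 of Exp 1, against 1417, 1005 and 625 units in cKO mice 1, 3 and 4 of Exp 2. In WT mice it was 37.5, 23.7 and 65.4 units in mice 1, 2 and 3 of Exp 1, against 463, 286 and 4459 units in mice 4, 5 and 6 of Exp 2. WT mouse 6 stood highest of all 12 mice, yet WT mice 4 and 5 also exceeded every Exp 1 value. The probe was well above background on 11 of 12 arrays, the exception being cKO mouse 5.

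Log2 levels of Inmt averaged -3.16 ± 0.78 in cKO Exp 1, 0.91 ± 0.44 in cKO Exp 2, -3.63 ± 0.52 in WT Exp 1 and 0.74 ± 2.03 in WT Exp 2 (SD, n = 3 each). The level was 16.8-fold lower in Exp 1 than in Exp 2 in cKO mice (log2 difference -4.07, SE 0.82). It was 20.7-fold lower in WT mice (log2 difference -4.37, SE 0.82). Without WT mouse 6 the WT difference was -3.21. Normexp correction gave -3.03 in cKO and -3.10 in WT mice.

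Olah (gene ID 99035) went the other way and was the only one of these genes measured above background on all 12 arrays. Its signal was 589.9, 909.5 and 359 units in cKO mice 2, 5 and 6 of Exp 1, against 149, 70.5 and 99.2 units in cKO mice 1, 3 and 4 of Exp 2. It was 287, 251 and 206 units in WT mice 1, 2 and 3 of Exp 1, against 129, 143 and 81.1 units in WT mice 4, 5 and 6 of Exp 2. All Exp 1 mice were above all Exp 2 mice, and within Exp 1 the 3 cKO mice were above the 3 WT mice.

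Log2 levels of Olah averaged 0.47 ± 0.76 in cKO Exp 1, -2.34 ± 0.54 in cKO Exp 2, -0.97 ± 0.39 in WT Exp 1 and -2.14 ± 0.54 in WT Exp 2 (SD, n = 3 each). Olah was 7.03-fold higher in Exp 1 than in Exp 2 in cKO mice (log2 difference 2.81, SE 0.42). In WT mice it was 2.25-fold higher (log2 difference 1.17, SE 0.42). Leaving out cKO mouse 5, the brightest, gave a cKO difference of 2.39. Normexp correction gave 2.19 in cKO and 0.76 in WT mice.

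Rgn (gene ID 19733) was also higher in Exp 1, with 1 cKO mouse well apart from the rest. The signal was 139.6, 463 and 106 units in cKO mice 2, 5 and 6 of Exp 1, against 44.5, 20.6 and 31.8 units in cKO mice 1, 3 and 4 of Exp 2. It was 159, 111.5 and 106 units in WT mice 1, 2 and 3 of Exp 1, against 46.7, 38.8 and 32.5 units in WT mice 4, 5 and 6 of Exp 2. The experiments did not overlap, the genotypes overlapped in each, and the signal of cKO mouse 3 was not well above background.

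Log2 levels of Rgn averaged -1.13 ± 1.28 in cKO Exp 1, -4.06 ± 0.57 in cKO Exp 2, -1.96 ± 0.35 in WT Exp 1 and -3.69 ± 0.30 in WT Exp 2 (SD, n = 3 each). Rgn was 7.61-fold higher in Exp 1 than in Exp 2 in cKO mice (log2 difference 2.93, SE 0.54). In WT mice it was 3.33-fold higher (log2 difference 1.73, SE 0.54). The cKO difference was 2.19 without cKO mouse 5. It was 1.55 in cKO and 0.81 in WT mice after normexp correction, and 1.57 and 0.82 in the authors' deposited table.

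**Figure D1:**
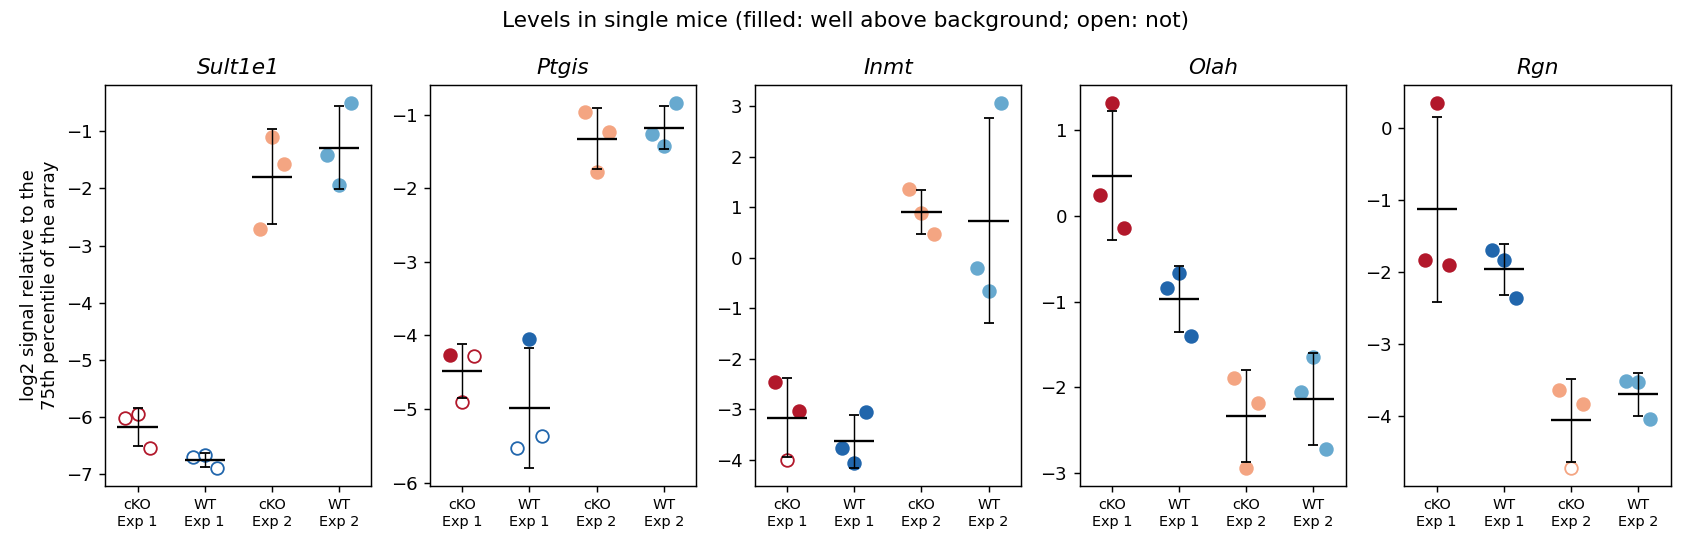
Log2 level (y axis, own scale per gene, 0 being the array's 75th percentile) for each mouse in cKO Exp 1, WT Exp 1, cKO Exp 2 and WT Exp 2. Points are single mice, filled where the probe was well above background, horizontal lines are means and bars are SD (n = 3). Sult1e1, Ptgis and Inmt lie lower in every Exp 1 mouse than in any Exp 2 mouse, and Olah and Rgn lie higher.

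Across both genotypes, 3 of the 5 genes had all 6 Exp 1 mice below all 6 Exp 2 mice, where 4.56% of 16157 genes without missing values did so. The other 2 genes had all Exp 1 mice above all Exp 2 mice, where 5.73% of genes did so. These shares describe the choice of the genes and are not evidence about them. Among 16181 genes ranked from the most negative difference in WT mice, Inmt was 57th, and in cKO mice it was 89th. Sult1e1 and Ptgis are given no rank, because the size of their difference was not measured on the Exp 1 side. Ranked from the most positive difference in cKO mice, Rgn was 9th and Olah 13th, and in WT mice Rgn was 59th and Olah 203rd.

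Slides 1 and 2 held mice of all groups, and the sign of each difference on a slide was fixed by the choice of genes whose experiments did not overlap, so only sizes are given. In cKO mice on slide 1, the log2 difference was -4.10 for Inmt, 1.95 for Olah and 1.77 for Rgn, and on slide 2 it was -4.47, 3.50 and 4.17 in the same order. In WT mice on slide 1 it was -2.92, 0.61 and 1.44, and on slide 2 it was -5.21, 1.55 and 2.09. Rgn in cKO mice differed most in size between the slides. Each of these within-slide values rests on 1 or 2 mice a group. Rows of the slide largely followed the experiments, with 5 of 6 Exp 1 arrays in row 2 and 5 of 6 Exp 2 arrays in row 1. With the row as a term in the fit, the differences were -3.89, 2.91 and 2.92 in cKO mice and -3.84, 1.45 and 1.70 in WT mice.

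The study's own question was the effect of Sox4, and none of these genes was called for it. The averaged cKO minus WT difference does not share the contrast on which the genes were chosen, so it was tested. With limma at an adjusted p of 0.05, 0 of the 5 genes passed, where 0.42% of 16181 genes did (63 genes or 0.389% lower and 5 genes or 0.0309% higher in cKO skin). At an unadjusted p under 0.05, 0 of the 5 and 1966 of all genes passed.

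Olah came nearest to a difference, with a log2 difference of 0.62 (SE 0.30, 95% interval -0.037 to 1.28, limma adjusted p = 0.436, unadjusted p = 0.0618). An exact two-sided permutation test over 400 exchanges of genotype within experiments, whose smallest possible p is 0.005, gave p = 0.175. The experiments did not look alike for Olah, with log2 differences of 1.44 in Exp 1 and -0.20 in Exp 2. In Exp 1 the genotypes did not overlap, which held for 5.66% of genes with cKO above WT, and in Exp 2 they overlapped. The difference between these differences was 1.64 and was not tested, because it shares mice with the choice of the genes.

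The other 4 genes had smaller averaged cKO minus WT differences relative to their error. For Inmt the log2 difference was 0.32 (SE 0.58, 95% interval -0.97 to 1.61, limma adjusted p = 0.851, exact permutation p = 0.65). For Rgn it was 0.23 (SE 0.38, 95% interval -0.61 to 1.08, limma adjusted p = 0.833, exact permutation p = 0.73), and without cKO mouse 5 it was -0.14. The upper ends of these intervals lie above 1 log2 unit, so neither interval shows that the genotypes were alike.

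For Ptgis the difference was 0.18 (SE 0.27, 95% interval -0.42 to 0.77, limma adjusted p = 0.817, exact permutation p = 0.57). For Sult1e1 it was 0.039 (SE 0.30, 95% interval -0.63 to 0.70, limma adjusted p = 0.968, exact permutation p = 0.925). The Sult1e1 value includes Exp 1 levels that were not well above background. So does the Ptgis value, as in Exp 1 its probe was well above background in 1 of 3 mice of each genotype. Within Exp 2, where Sult1e1 and Ptgis were measured in every mouse, the cKO minus WT differences were -0.50 and -0.15, and both genes overlapped between genotypes.

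**Figure D2:**
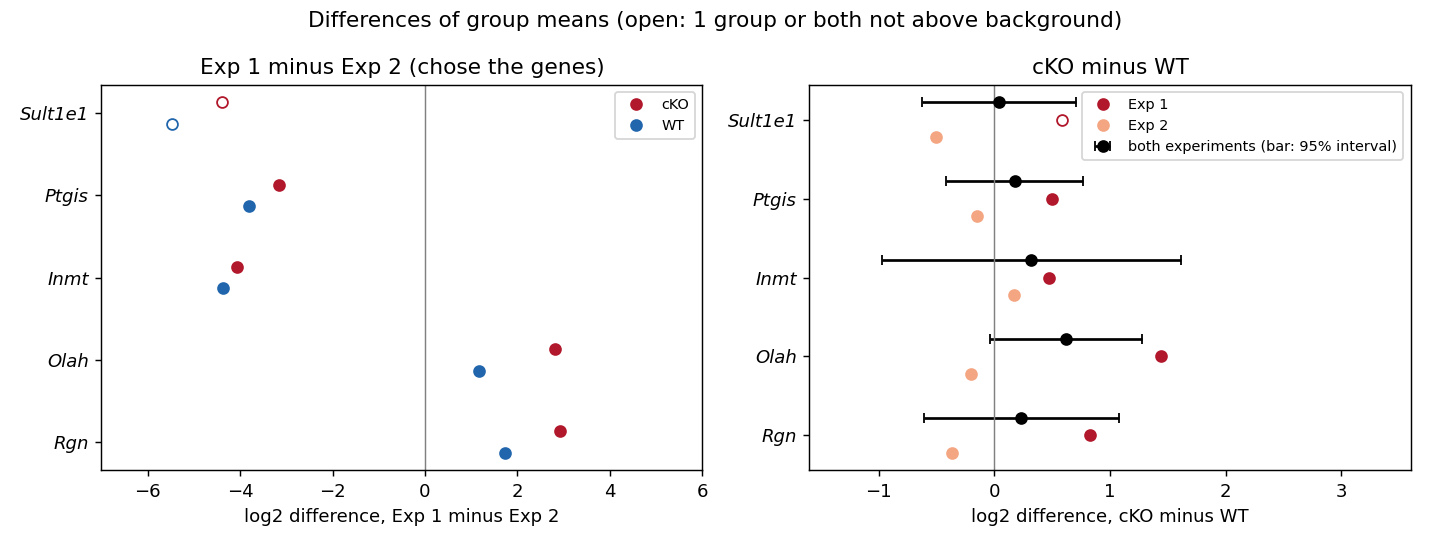
Log2 differences of group means (x axis) for the 5 genes, Exp 1 minus Exp 2 in cKO and WT mice on the left and cKO minus WT on the right. Bars are 95% intervals of the averaged cKO minus WT difference, all of which cross 0, and open points involve Sult1e1 in Exp 1, not above background. Ptgis points are filled, though in Exp 1 its probe was well above background in 1 of 3 mice of each genotype. The experiment differences lie between -5.46 and 2.93, and the averaged genotype differences between 0.039 and 0.62.

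Skin samples hold several tissues, and in such bulk samples fewer cells of a type and less RNA per cell cannot be told apart. Skeletal muscle genes moved with Sult1e1, Ptgis and Inmt. All 10 listed muscle genes were usable, and their summed level, in multiples of the array's 75th percentile, was 2.31 to 38.7 in cKO Exp 1, 542 to 1067 in cKO Exp 2, 1.21 to 2.49 in WT Exp 1 and 9.61 to 1065 in WT Exp 2. Between 4 and 9 of the 10 were above background in Exp 1 mice, against 9 or 10 in Exp 2 mice.

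Muscle level and these genes shared an order in some comparisons and not in others, given here as a description. The mean log2 muscle level was 0.45 and 0.17 in cKO mice 5 and 6 of Exp 1, against -1.15 in WT mouse 5. Sult1e1 was 5.89 and 4.225 units in those Exp 1 mice, against 117 units in WT mouse 5. Ptgis was 12.2 and 20.3 units in the same Exp 1 mice, against 167 units in WT mouse 5, and Inmt was 22.7 and 48.5 units, against 286 units. The muscle level of WT mouse 5 was above those of the other 4 Exp 1 mice, which lay between -4.59 and -3.24. Among WT mice of Exp 2, mouse 5 was lowest, mouse 4 next and mouse 6 highest for the muscle level and for all 3 genes. The mean log2 levels of adipocyte, macrophage, fibroblast and endothelial markers had this order too, so it was not particular to muscle. Hair, epidermal and sebaceous markers had the reverse order, and liver markers had neither. In cKO mice 3, 4 and 1 of Exp 2 the muscle level rose (4.425, 4.81 and 5.66). Ptgis rose in that order, Sult1e1 fell in it (253, 151 and 84.9 units), and Inmt was lowest in mouse 4. In cKO mice 2, 6 and 5 of Exp 1 the muscle level rose and Inmt fell. The part of muscle in these results was not tested.

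Hair, fat, macrophage, endothelial, liver and fibroblast markers also leaned towards Exp 2. For 11 of 13 hair shaft and matrix genes the summed level was 318 to 2059 in cKO Exp 1, 2288 to 2983 in cKO Exp 2, 1353 to 1878 in WT Exp 1 and 2651 to 2850 in WT Exp 2, with no overlap between the experiments. The summed level of the 10 adipocyte genes was 74.7 to 339 in cKO Exp 1, 337 to 585 in cKO Exp 2, 182 to 267 in WT Exp 1 and 364 to 431.5 in WT Exp 2. For 5 of 6 macrophage genes it was 23.2 to 26.1 in cKO Exp 1, 36.0 to 41.3 in cKO Exp 2, 24.05 to 38.8 in WT Exp 1 and 39.2 to 42.5 in WT Exp 2. The 6 endothelial genes summed to 8.235 to 10.1 in cKO Exp 1, 9.99 to 11.3 in cKO Exp 2, 7.11 to 10.8 in WT Exp 1 and 10.0 to 11.45 in WT Exp 2. Over both genotypes, the ranges of the experiments overlapped for endothelial, adipocyte, macrophage, liver and fibroblast genes. Of 7 liver genes 5 were used, with sums of 1.98 to 8.56 in cKO Exp 1, 12.1 to 28.2 in cKO Exp 2, 5.17 to 6.05 in WT Exp 1 and 6.43 to 15.85 in WT Exp 2. The liver genes Apoa1 and Ttr were above background on 0 and 1 of the 12 arrays, Alb on 5, Ahsg on 7, and Serpina1a, Cyp2e1 and Tat on all 12. The part of these tissues, fibroblasts included, in the results for Sult1e1, Ptgis and Inmt was not tested. The 8 fibroblast genes summed to 1344 to 1622 in cKO Exp 1, 1421 to 1873 in cKO Exp 2, 1371 to 1594 in WT Exp 1 and 1631 to 1674 in WT Exp 2.

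Olah and Rgn ran beside epidermal and sebaceous genes. For 7 of 8 interfollicular epidermis genes the summed level was 1483 to 2828 in cKO Exp 1, 888 to 1165 in cKO Exp 2, 1282 to 1658 in WT Exp 1 and 1042 to 1412 in WT Exp 2. For 7 of 8 sebaceous gland genes it was 423 to 819.7 in cKO Exp 1, 225 to 309 in cKO Exp 2, 304 to 419 in WT Exp 1 and 239 to 319.8 in WT Exp 2. Every used gene of both lists was above background on all 12 arrays.

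Mouse 5 of the Exp 1 cKO group stood apart in several ways at once. It had the highest Olah and Rgn signals, the highest epidermal and sebaceous sums, and the lowest adipocyte sum. Its hair shaft and matrix genes, 11 of 13 used, averaged 2.41 on the log2 scale, the lowest of all mice. Its array also had the lowest 75th percentile of the processed signal (364 units) and the lowest share of probes well above background (53.9%). After each group's mean was removed, Olah and Rgn still varied together over the 12 arrays (Pearson r = 0.90), and r was 0.88 over the 11 arrays without cKO mouse 5. Over the 12 arrays the other pairs of the 5 genes had r from -0.64 (Inmt and Olah) to 0.40 (Sult1e1 and Inmt). The arrays share labelling and scaling, and these r values are given as a description. The part of epidermal or sebaceous content, or of array brightness, in the Olah and Rgn results was not tested.

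**Figure D3:**
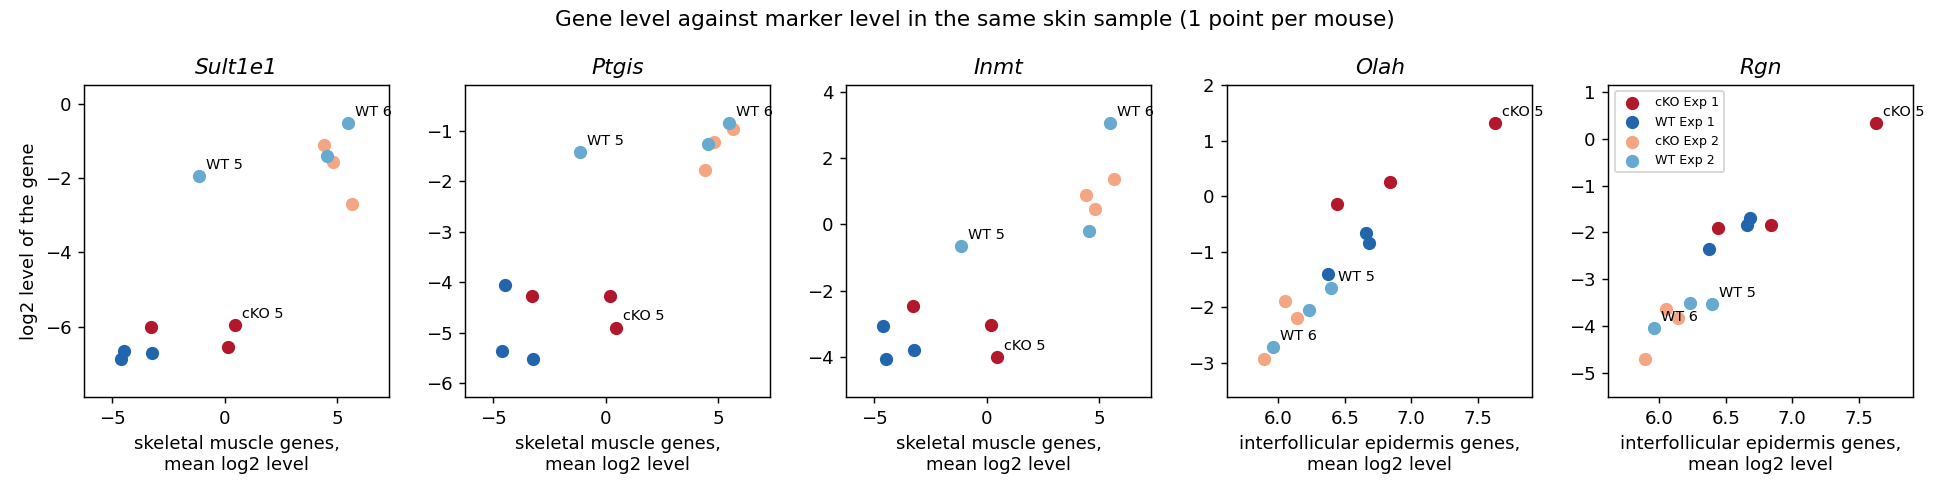
Log2 level of each gene (y axis) against the mean log2 level of skeletal muscle genes (Sult1e1, Ptgis, Inmt) or interfollicular epidermis genes (Olah, Rgn) in the same sample (x axis), 1 point per mouse. WT mouse 5 of Exp 2 has a muscle level of -1.15 and the lowest Sult1e1, Ptgis and Inmt levels of its group, above those of every Exp 1 mouse, and cKO mouse 5 of Exp 1 lies at the upper right for Olah and Rgn.

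The genes most like each of the 5 over the 12 arrays were named by Pearson correlation of log2 levels, as a description. For Sult1e1 they were Ace, the angiotensin-converting enzyme (r = 0.96), Eng, a TGF-beta co-receptor of endothelium, and Pon1, a paraoxonase of plasma lipoproteins (0.95 or above for both). For Ptgis they were the ubiquitin ligase Pja2 (r = 0.96), the transmembrane protein Tmeff2 (r = 0.95) and Sult1e1 itself (r = 0.95). For Inmt they were the RNA-binding protein Bicc1 (r = 0.98), the transporter Slc43a3 (r = 0.96) and the interferon-activated gene Ifi211 (r = 0.95). These r values, and those for Olah and Rgn below, include the difference between experiments on which the 5 genes were chosen. With each group's mean removed, r between Ptgis and Sult1e1 was -0.092 over the 12 arrays.

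For Olah the list was led by Krt79, a keratin of the follicle opening and sebaceous duct (r = 0.98), before Lrch1 and Psd4 (both r = 0.97). For Rgn it held Emc9, a subunit of an endoplasmic reticulum complex, Ahr, the aryl hydrocarbon receptor, and Defb14, a beta-defensin (all r = 0.98). Sizes differed between these genes, and Pon1 was well above background on 6 of 12 arrays. The Exp 1 minus Exp 2 log2 differences of Eng were -2.22 in cKO and -1.73 in WT mice, whereas those of Pja2 were -0.22 and -0.25.

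The pathways around the 5 genes were examined through 117 listed genes, of which 104 were tested in the fit over all genes. In cKO mice 7 of them fell and 4 rose in Exp 1 relative to Exp 2 (limma, adjusted p under 0.05), where 9.98% of all genes passed, 4.6% falling and 5.38% rising. In WT mice 0 of the 104 passed, where 0.84% of all genes did (0.47% lower, 0.371% higher). For the averaged cKO minus WT difference 0 of the 104 passed. The median log2 difference of the 104 was 0.042 in cKO and -0.042 in WT mice, against 0.026 and -0.011 over all genes. The cKO count was 0 without cKO mouse 3, 1 without cKO mouse 1 or 4, and 22 without cKO mouse 6, and it ranged from 0 to 30 over all alternative settings. Of the 12 mice, only leaving out WT mouse 1 kept it within 1.5 times, at 8. The WT count was 6 without cKO mouse 5, which enters through the shared spread, when the WT calls over all genes numbered 597, and it ranged from 0 to 6 over all settings.

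No gene of the sulfotransferase and estrogen list was called among 17 tested, with median differences of 0.33 in cKO and 0.045 in WT mice. Sult1a1, a phenol sulfotransferase, had differences of -1.09 in cKO (SE 0.33, limma adjusted p = 0.0622) and -0.98 in WT mice (SE 0.33, limma adjusted p = 0.15). Sult2b1, which sulfates cholesterol in epidermis, had differences of 0.65 and 0.045. Papss2, which makes the sulfate donor, had differences of 0.21 and 0.11. The estrogen receptor Esr2 had a WT difference of 1.12 (SE 0.26, limma adjusted p = 0.0733).

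Around Ptgis, 4 of 25 prostanoid genes fell in cKO mice and 1 rose, where 4.6% and 5.38% of all genes did. The calls in this and the next lists share the dependence on single mice given above. Tbxas1, thromboxane synthase, which draws on the same substrate as Ptgis, averaged -3.34 ± 0.37 in Exp 1 and -1.20 ± 0.53 in Exp 2 on the log2 scale (SD, n = 3 each; difference -2.14, SE 0.36, limma adjusted p = 0.0158). Ptgs1, the constitutive cyclooxygenase, rose by 1.52 (SE 0.34, limma adjusted p = 0.0274). The prostaglandin E receptor Ptger3 fell by 1.07 (SE 0.28, limma adjusted p = 0.043). The prostaglandin reductase Ptgr2 fell by 0.52 (SE 0.14, limma adjusted p = 0.0414). Ptgir, the prostacyclin receptor, had differences of -0.49 in cKO and -0.023 in WT mice, and neither passed. Akr1b3, an aldose reductase listed with this pathway and named after its values were seen, fell by 0.47 (limma adjusted p = 0.0498). In WT mice the first 4 of these genes had differences of -0.29 for Tbxas1, 0.52 for Ptgs1, -1.0 for Ptger3 and -0.35 for Ptgr2, none past the threshold, and the difference between genotypes was not tested gene by gene.

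Among 21 genes of the methyltransferase list, Nnmt, which methylates nicotinamide, fell by 1.13 in cKO mice (SE 0.29, limma adjusted p = 0.0403) and had a WT difference of -0.77 (limma adjusted p = 0.198). It was the only call of the list, where 9.98% of all genes passed. Hnmt, which methylates histamine, had differences of -0.062 in cKO and -0.29 in WT mice. Maob, which breaks down amines, had differences of -0.15 and -0.28. The list median was -0.10 in cKO and -0.28 in WT mice.

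Of 26 genes of fatty acid synthesis, 1 fell and 2 rose in cKO mice, a share near the 9.98% of all genes. Thrsp, a regulator of fat synthesis, fell by 2.50 (SE 0.67, limma adjusted p = 0.043). The elongases Elovl6 and Elovl5 rose by 1.59 (SE 0.44, limma adjusted p = 0.0459) and by 0.78 (SE 0.21, limma adjusted p = 0.0464). In WT mice the differences had the same signs, at -2.13 for Thrsp, 0.81 for Elovl6 and 0.48 for Elovl5, none past the threshold. Fasn, the synthase on which Olah acts, had differences of 0.28 in cKO and 0.011 in WT mice, neither called. Thrsp went in the direction of the adipocyte sum and the elongases in that of the sebaceous sum, and the part of either tissue was not tested.

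Of 16 genes of the ascorbate pathway and calcium handling, 1 fell and 1 rose in cKO mice, also near the 9.98% of all genes. Atp2a1, the calcium pump of fast muscle, fell by 5.30 (SE 1.24, limma adjusted p = 0.0306), beside the muscle genes given above. Slc2a1, a glucose transporter that also carries oxidised ascorbate, rose by 1.43 (SE 0.35, limma adjusted p = 0.0342). In WT mice the differences had the same signs, at -5.00 for Atp2a1 (SE 1.24, limma adjusted p = 0.0758) and 0.87 for Slc2a1, neither past the threshold. Gulo, the last enzyme of ascorbate synthesis in mice, had differences of 0.10 in cKO and -0.21 in WT mice, neither called.

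**Figure D4:**
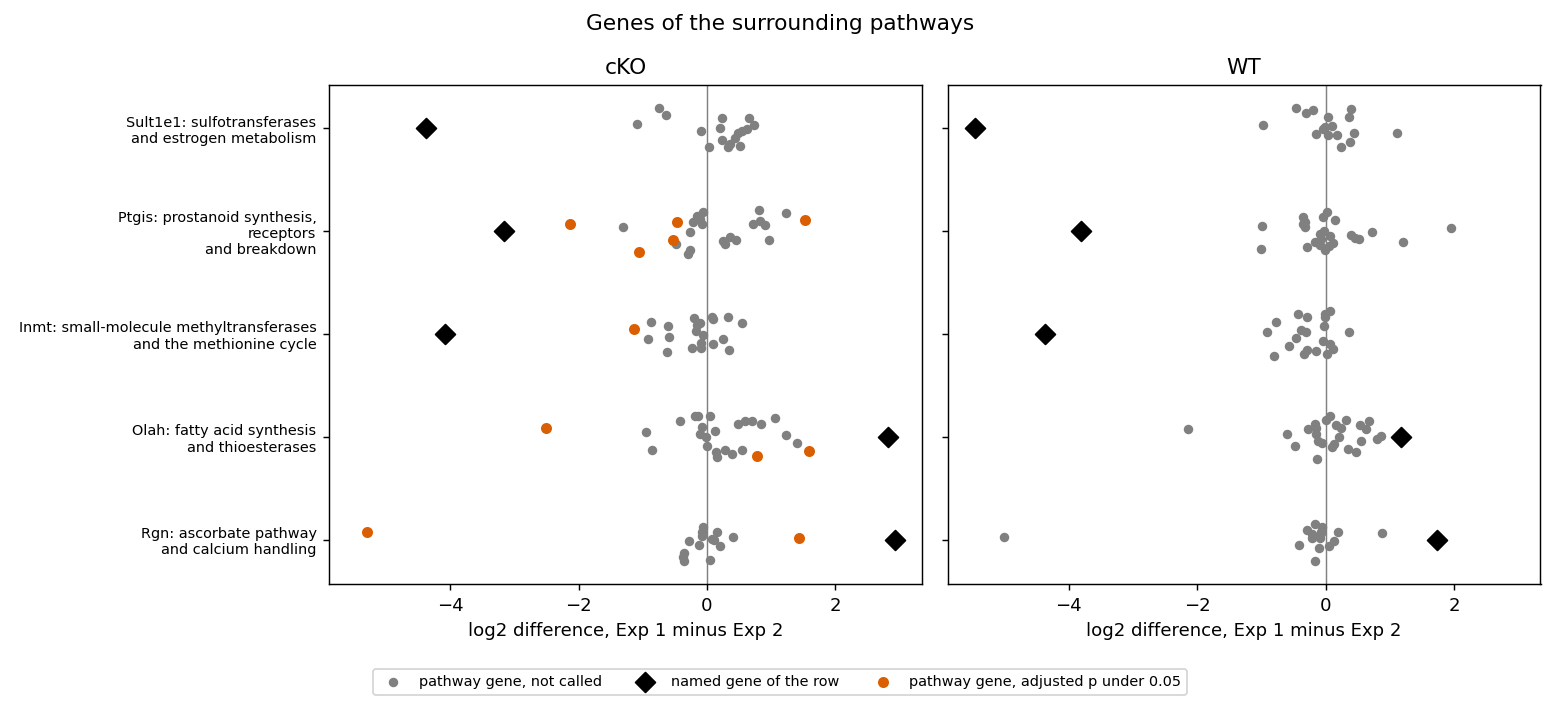
Exp 1 minus Exp 2 log2 difference (x axis) of every tested pathway gene in cKO and WT mice, 1 point per gene with random vertical spread. Diamonds are the 5 genes themselves, and orange points passed an adjusted p of 0.05. The diamond of Sult1e1 at -4.38 and -5.46 uses Exp 1 values not above background, and that of Ptgis uses some such values. The pathway genes span -5.30 to 1.59 in cKO mice and -5.0 to 1.95 in WT mice.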

How the data were processed

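Total RNA of 12 skin samples was hybridised to one-colour arrays, 1 per mouse. Per the file headers, Feature Extraction 11.5.1.1 gave the deposited gProcessedSignal, an intensity after background subtraction, with flags (0 or 1) for spots well above background, saturated and outlying. The authors' deposited value table holds log2 values, and how they were scaled is not stated there. It served as an alternative only, since its column of cKO mouse 1 matched the array of another mouse better (r = 0.94) than its own (r = 0.93), as did, by smaller margins, those of WT mouse 6 (0.9541 against 0.9533) and cKO mouse 2 (0.9594 against 0.9563).

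Outlier spots were left out, log2 processed signal was averaged per probe, and each array's 75th percentile was subtracted. Probes were named through RefSeq accessions (27509 of 55681 probes), a probe was kept if 3 or more of the 12 arrays had it well above background, and the brightest kept probe stood for a gene. The 16181 genes were fitted as 4 group means with limma 3.58.1 in R 4.3.3 (8 residual and 2.3 prior degrees of freedom), with two-sided tests adjusted by the Benjamini-Hochberg method at 0.05. The number of arrays limits the precision.

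The 5 genes, pathway lists and marker lists were chosen with earlier results of these data known. Exp 1 minus Exp 2, and the genotype differences within experiments, share mice with that choice and carry no test for the 5 genes. Genes named are the 5 genes, Sox4, up to 4 called genes per pathway list by smallest p, and the 3 genes most correlated with each of the 5. Other list genes were named after their values were seen. Mouse numbers did not pair samples, since numbers 1, 3, 5 and 6 each join a cKO and a WT mouse of different experiments. Deviations from group means correlated at -0.26 to 0.072 between mice of the same number, which alone cannot exclude a pairing. Alternatives covered scaling, background correction, the authors' table, probe filters, probe averaging, slide, row, replicate number and leaving out each mouse. The files gave no mean spot signal, so normexp (offset 50) used median signals.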

Additional observations from a re-analysis of the deposited data

How the results depend on the processing

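No sign of an Exp 1 minus Exp 2 difference turned for the 5 genes, which their choice fixes wherever mice are left out or single slides taken, so it shows no stability. Values for Sult1e1 and Ptgis include Exp 1 signals not above background. No averaged genotype difference passed the test under any of the 24 alternatives (25 for Olah). Leaving out single mice, the cKO experiment differences ranged from -4.84 to -4.03 for Sult1e1, -3.38 to -2.95 for Ptgis, -4.42 to -3.65 for Inmt, 2.39 to 3.12 for Olah and 2.19 to 3.31 for Rgn. The WT ones ranged from -5.79 to -5.07, -4.27 to -3.54, -5.07 to -3.21, 0.88 to 1.42 and 1.56 to 1.93 in the same order. Averaged genotype differences ranged from -0.14 to 0.27 for Sult1e1, -0.028 to 0.90 for Inmt (negative without WT mouse 5) and -0.14 to 0.43 for Rgn (negative without cKO mouse 5).

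The averaged genotype difference of Sult1e1 turned negative under median scaling (-0.046), normexp with quantile normalization (-0.15), the authors' table (-0.21), that table without cKO mouse 1 (-0.011, chosen after seeing the data), slide as a block (-0.085) and slide 1 alone (-0.13). For Ptgis it turned negative under normexp (-0.073) and the table without cKO mouse 1 (-0.14), and for Inmt on slide 2 alone (-0.60).

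Experiment differences shrank under normexp, with cKO values of -1.66 for Sult1e1, -1.48 for Ptgis, 2.19 for Olah and 1.55 for Rgn, and WT values of -2.18 for Sult1e1, -1.71 for Ptgis, -3.10 for Inmt and 0.81 for Rgn. The authors' table gave cKO values of -1.57 for Sult1e1, -1.96 for Ptgis and 1.57 for Rgn, and WT values of -2.20, -1.72 and 0.82 in that order and -3.10 for Inmt. Without its column of cKO mouse 1, that table gave cKO values of -1.96 for Sult1e1, -1.35 for Ptgis, -2.81 for Inmt and 1.63 for Rgn. On slide 1 alone the moved values were -3.58 for Sult1e1, 1.95 for Olah and 1.77 for Rgn in cKO and -4.83 for Sult1e1, -3.29 for Ptgis and -2.92 for Inmt in WT mice. On slide 2 alone they were 3.50 for Olah and 4.17 for Rgn in cKO and -4.48 for Ptgis in WT mice.

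Counts of called genes moved more. Against 68 for genotype, 1615 for experiment in cKO and 136 in WT mice, median scaling gave 1031 in cKO and 277 in WT, normexp 273 in WT, the authors' table gave 19, 62 and 4, and that table without cKO mouse 1 gave 37, 1058 and 251. No filter gave 45 for genotype and 44 in WT. Slide as a block gave 146 in cKO and 21 in WT, slide 1 alone 112 and 5, slide 2 alone 473, 2987 and 702, and row as a term 573 in cKO and 5 in WT. Leaving out single mice gave 31 to 122, 157 to 2324 and 6 to 597. Under median scaling the all-gene median was -0.12 for genotype and -0.15 for experiment in WT mice, and the Sult1e1 change is no larger than that shift.

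With the mouse number as a replicate block, limma called 4, 0 and 0 genes, and the Ptgis cKO difference was -3.88. The numbers were not a pairing. The filter on all 12 arrays gave no value for Sult1e1, Ptgis, Inmt and Rgn. Causes of these changes were not tested. Signal over background limits Sult1e1 and Ptgis in Exp 1.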
